A study of Homo sapiens with 8 samples.

Results

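The genes of the cytosolic ribosome's proteins were followed in H1703, a human cell line established from a squamous cell carcinoma of the lung. They were chosen by symbol: RPL or RPS followed by a number, with the paralog endings A, X and L allowed, plus RPLP0, RPLP1, RPLP2 and RPSA. This gave 71 of the 27204 genes and loci in the tables, 42 of the large subunit and 29 of the small subunit. Of these, 68 passed the filter on low values, which was at least 1 FPKM in at least 2 of the 8 libraries, and RPS10L, RPL3L and RPL10L did not. Another 17 ribosomal protein symbols, among them RPL4, RPL10, RPL13A, RPL26, RPL36A and RPL41, stood only in loci that the authors' tables merge with other genes, and were left out.

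The cells were in 4 groups of 2 libraries each: detached cells with a knockdown of SPIB, detached control cells, attached cells with a knockdown of SPIB, and attached control cells. The control cells carried a knockdown of luciferase, a gene that human cells lack, and "detached" stands for the label floating. The labels carry a note of 12 h of floating for every sample, also for those labelled attached. The series title concerns SPIB, an ETS family transcription factor, in the resistance of lung cancer cells to anoikis, a death of cells that have lost their hold on the matrix. What reagent was used for the knockdown is not stated in the labels. SPIB stood in a locus merged with POLD1, so its knockdown could not be read from these tables.

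Cytosolic ribosomal proteins are made in nearly equal numbers, since each ribosome holds a single copy of most of them, and unassembled ones are degraded. Their mRNAs are among the most abundant in growing cells. Most start with a C followed by a run of pyrimidines, called a 5′ terminal oligopyrimidine or TOP tract. The kinase complex mTORC1, which senses nutrients and growth factors, controls the translation of TOP mRNAs through LARP1, while MYC and RNA polymerase I set the supply of ribosomal RNA and assembly factors. A change in the translation of a TOP mRNA need not change its level, and only the level was measured here.

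The bases around the start of 10 of these genes are printed because they show the tract that most of them share and the paralogs and called genes that lack it. Each runs 5′ to 3′ on the gene's own strand from 35 bases before the RefSeq start through the first 20 bases of the transcript, in RefSeq's GRCh38.p14, a later build than that of the expression tables. Capitals mark a C at the start with the unbroken C and T bases that follow it, where there were at least 4 of these. The first 3 are the genes that passed the test for SPIB knockdown.
RPS12, chr6:132814534-132814588, plus strand: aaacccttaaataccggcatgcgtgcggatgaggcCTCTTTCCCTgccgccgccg
RPL27A, chr11:8682757-8682811, plus strand: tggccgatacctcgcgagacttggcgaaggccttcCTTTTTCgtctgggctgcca
RPL31, chr2:101002254-101002308, plus strand: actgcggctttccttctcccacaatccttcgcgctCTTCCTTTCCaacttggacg
The next 3 passed the test for detachment, and no such tract was found within 5 bases either side of their start.
RPS26, chr12:56041883-56041937, plus strand: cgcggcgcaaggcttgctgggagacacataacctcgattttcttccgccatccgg
RPL26L1, chr5:172958694-172958748, plus strand: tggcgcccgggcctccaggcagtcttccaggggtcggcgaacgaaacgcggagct
RPL7L1, chr6:42879581-42879635, plus strand: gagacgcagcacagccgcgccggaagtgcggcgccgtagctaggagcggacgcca
The last 4 are a pair of genes and their paralogs of lower level, RPL22 beside RPL22L1 and RPS27 beside RPS27L.
RPL22, chr1:6199576-6199630, minus strand: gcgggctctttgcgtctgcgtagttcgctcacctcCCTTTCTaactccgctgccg
RPL22L1, chr3:170870176-170870230, minus strand: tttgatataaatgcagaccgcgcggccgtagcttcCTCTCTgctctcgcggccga
RPS27, chr1:153990727-153990781, plus strand: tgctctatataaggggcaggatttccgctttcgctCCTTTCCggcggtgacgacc
RPS27L, chr15:63157458-63157512, minus strand: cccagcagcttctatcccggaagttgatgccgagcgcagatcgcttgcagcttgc

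RefSeq promoters were matched by symbol for 54 of the 71 genes. The tract stood exactly at the start in 35 of these 54 (64.8%), against 1104 of all 27305 RefSeq promoters (4.0%). Allowing its C to lie up to 5 bases before or after the start, 42 of 54 (77.8%) held it, against 21.1% of all promoters. Only the gene's own strand was searched. Genes of ribosome assembly held it at the start in 4 of 46 (8.7%) and mitochondrial ribosomal proteins in 4 of 46 (8.7%), while other mRNAs of the TOP class held it in 9 of 12. RPL6, RPL9, RPL13, RPL15, RPS15, RPS27A, RPS4X and RPL10L also had no tract in that window, beside RPS26, RPL26L1, RPL7L1 and RPS27L. A missing tract says only that these letters were not in this window of this annotated start.

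FPKM are the fragments mapped to a locus, scaled by its length and by the size of its library. They are relative values, so RNA per cell was not measured, and fewer cells and less RNA per cell cannot be told apart. The 8 libraries summed to between 707883 and 786285 FPKM and listed between 13022 and 13283 loci at 1 FPKM or more. Both loci of the mitochondrial genome were listed at 0 in 1 library of every group, the second library of attached knockdown cells and the first library of the other groups, which moves those sums. The part of this in the results was not tested, and rescaling without small RNA, ribosomal RNA and mitochondrial genes is given where it changed a direction. The number of mapped reads per library is not in the tables, so depth is unknown. Of the squamous markers, TP63 lay between 0.0328 and 0.318 FPKM, SOX2 between 0.734 and 2.68, and DSG3, PKP1 and CALML3 at 0.164 or below, while KRT5, KRT6A and KRT14 stood only in merged loci. The epithelial markers were split: the keratins KRT18 and KRT8 lay at 46.2 and 11.5 FPKM or more. KRT19 lay between 0.26 and 4.23 FPKM, and EPCAM and CDH1 at 0.292 FPKM or below. Among mesenchymal markers, the filament VIM lay between 2056 and 2550 FPKM and ZEB1 between 21.5 and 27.7. CDH2 lay between 6.58 and 9.94 FPKM and FN1 between 2.05 and 4.42. PTPRC, a leukocyte marker, lay at 0.171 FPKM or below. The measured defining markers of squamous cells were therefore low or near 0 in these libraries. The labels call the libraries of a group biological repeats, and the p-values rest on the spread between them.

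The ribosomal protein genes together, with RPS18 counted from its reference copy alone, summed to 94270 and 93954 FPKM in detached knockdown cells and 90073 and 89195 FPKM in detached control cells. The sums were 94225 and 97343 FPKM in attached knockdown cells and 91310 and 91645 FPKM in attached control cells. In both states, each knockdown library lay above each control library. As a share of all FPKM outside small RNA, ribosomal RNA and mitochondrial genes, they made up 13.5% and 13.4% in detached knockdown cells against 12.9% and 12.8% in detached control cells. The shares were 13.0% and 13.2% in attached knockdown cells against 12.7% in each attached control library. As a share of all FPKM, knockdown and control libraries overlapped in both states. Detached knockdown cells then had 13.3% and 12.5%, against 12.7% and 11.9% in detached control cells. Attached knockdown cells had 12.0% and 13.1%, against 12.5% and 11.8% in attached control cells. With 2 libraries against 2, the smallest exact two-sided p is 0.333, so these sums were not tested.

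Levels per gene were high and, for most members, close together. Of the 71 genes, 63 averaged at least 100 FPKM over the 8 libraries and 42 at least 1000 FPKM. The highest single-locus gene was RPS23, whose protein sits at the decoding centre, at 3303 FPKM on average, and RPS16 at 3052, RPL8 at 2801 and RPLP1 at 2716 FPKM were also among the highest. RPS18 was listed on the reference chromosome 6 and on 3 haplotype copies of it, each between 2089 and 2544 FPKM, so its sum of 9291 FPKM is not comparable with the others, while its fold changes are. Many ribosomal protein genes have processed pseudogenes, so reads may be split among copies and levels are uncertain to that extent.

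**Figure D1:**
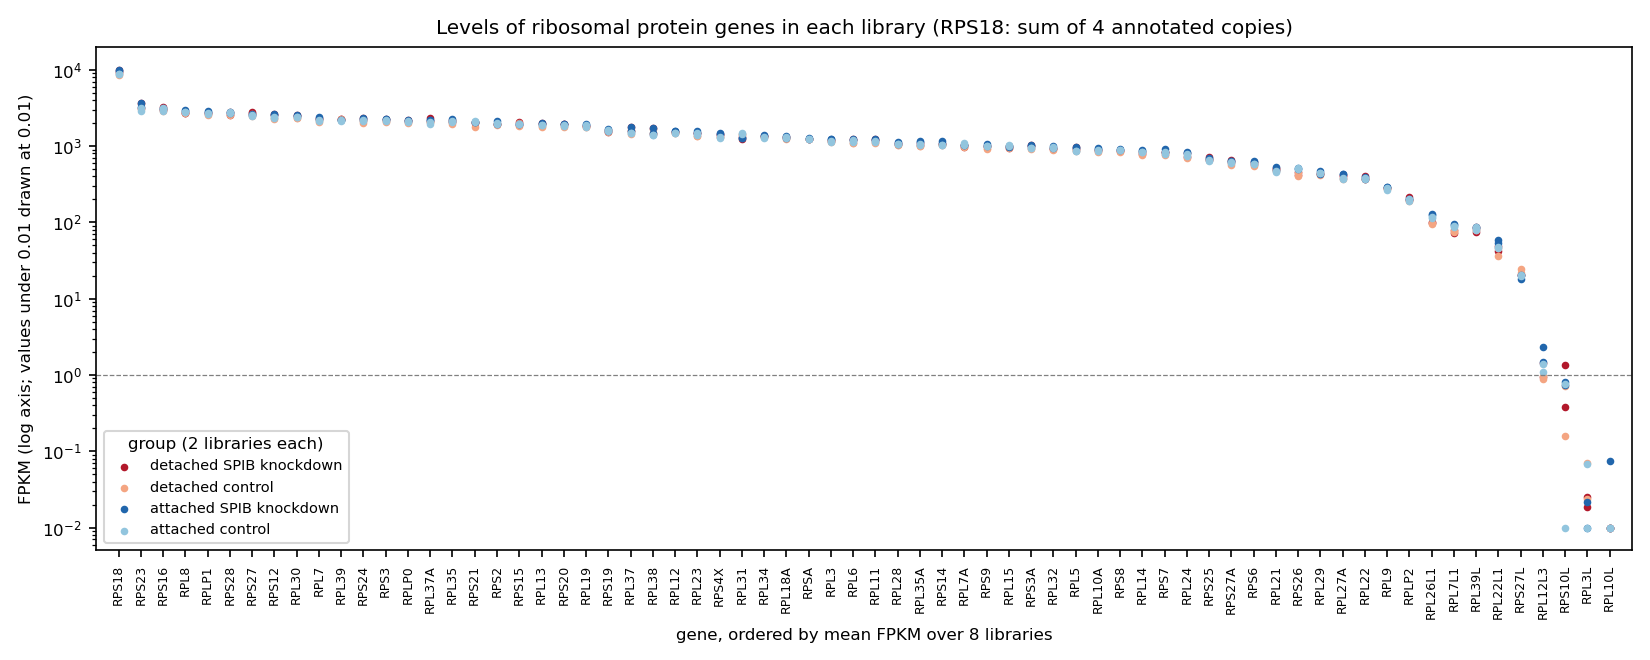
FPKM of ribosomal protein genes on a log axis, ordered by mean level, with a few genes not shown, 1 point per library and 4 groups of 2 libraries in colour. The points of a gene nearly coincide at levels of 100 FPKM or more, RPL7L1, RPL39L, RPL22L1, RPS27L, RPL12L3, RPS10L, RPL3L and RPL10L form the low end, and values under 0.01 are drawn at 0.01.

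The paralogs stood at the low end. RPL26L1 averaged 110 FPKM, RPL7L1 84.1, RPL39L 82.5, RPL22L1 47.6 and RPS27L 20.8 FPKM. Their partners were at 378 FPKM for RPL22 and 2600 FPKM for RPS27, and RPL39, a small protein of the peptide exit tunnel, lay between 2149 and 2294 FPKM. RPL12L3 (hg19 chr20:19804087-19804587) averaged 1.31 FPKM. RPS10L (hg19 chr20:820090-820620) was listed at 0 in the second attached control library and averaged 0.615 FPKM. Both were included by symbol alone, and whether these short loci encode a ribosomal protein was not examined. RPL3L, known as the striated muscle paralog of RPL3, did not exceed 0.0709 FPKM, and RPL10L, known as the testis paralog of RPL10, was listed at 0 in all libraries except the second attached knockdown library, at 0.0745 FPKM. Among the stalk proteins that bind elongation factors, RPLP0 averaged 2124 FPKM and RPLP2 199 FPKM.

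Replicates differed little. The median standard error (SE) of a fold change was 0.04 for the 68 tested genes, against 0.11 for all 13438 tested genes and loci, on the log2(FPKM + 1) scale used for all fold changes here. RPL12L3 had the largest replicate SD, 0.20, as the gene of lowest level tested. RPS23 followed at 0.14, with RPL22L1 at 0.14 and RPL38 at 0.13. RPS23 measured 3155 and 3671 FPKM in detached knockdown cells, 3052 and 3531 in detached control cells, 3255 and 3705 in attached knockdown cells and 2877 and 3179 in attached control cells. The libraries of every group stood apart, the second above the first each time. Both attached knockdown libraries lay above both attached control libraries, while every other pair of groups overlapped.

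**Figure D2:**
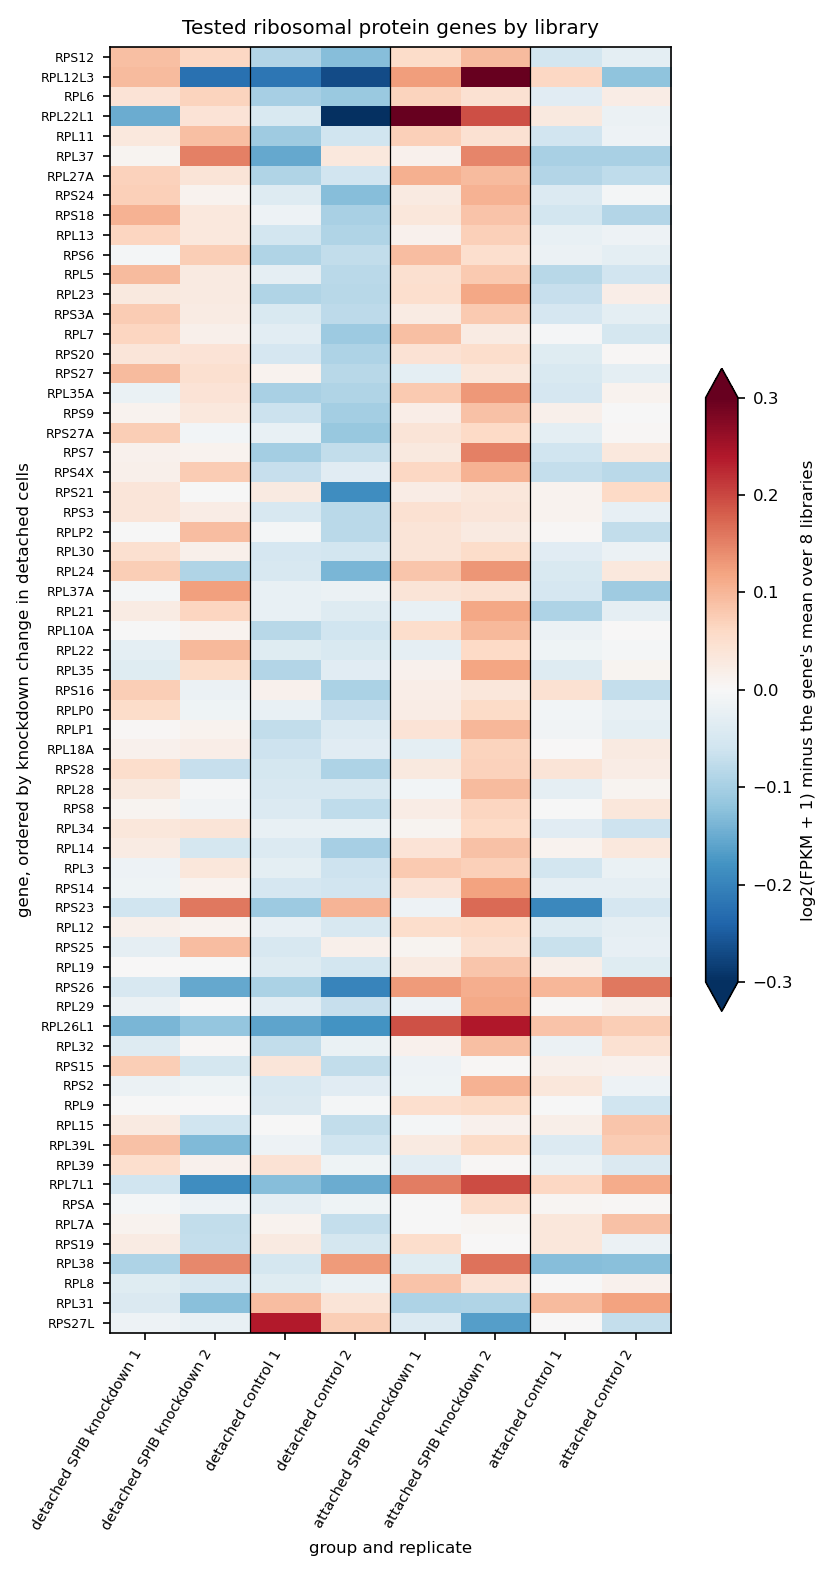
Deviation of tested ribosomal protein genes, a few of them not shown, from each gene's own mean over 8 libraries, on the log2(FPKM + 1) scale, with genes in rows ordered by their SPIB knockdown difference in detached cells and libraries in columns. The detached control columns are mostly blue and both knockdown groups mostly red, RPL31 and RPS27L at the foot run the other way, and RPL26L1, RPL7L1 and RPS26 are blue in the 4 detached libraries.

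The first question was what detachment did in SPIB-knockdown cells and in control cells. In detached knockdown cells, against attached knockdown cells, 4 of 68 ribosomal protein genes fell and 0 rose at a Benjamini-Hochberg adjusted p under 0.05 in limma. This is 5.88%, against 7.11% of all tested genes, of which 5.06% fell and 2.05% rose. The 4 were RPL26L1, RPL7L1, RPS26 and RPL8. In detached control cells, against attached control cells, 2 of 68 fell, RPS26 and RPL26L1, and 0 rose (2.94%, against 3.15% of all tested genes, of which 2.25% fell and 0.893% rose). Most members are abundant, and among tested genes that averaged at least 100 FPKM, 3 of 63 members passed in knockdown cells (4.76%, against 19.1% of all 1266 such genes) and 2 of 63 in control cells (3.17%, against 8.93%). The members' shares were thus near those of all tested genes and below those of genes at 100 FPKM or more, a difference that was not tested.

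RPL26L1, a paralog of RPL26 (hg19 chr5:172385732-172396774), measured 99.2 and 101 FPKM in detached knockdown cells, against 125 and 129 FPKM in attached knockdown cells. In detached control cells it measured 97.6 and 96.2 FPKM, against 116 and 115 FPKM in attached control cells. The 4 detached libraries all lay below the 4 attached ones. Its log2 fold change was -0.34 ± 0.04 (SE, limma, adjusted p = 0.00562) in knockdown cells and -0.25 ± 0.04 (adjusted p = 0.025) in control cells. These levels were 21.1% and 15.9% lower. With quantile normalization the call in knockdown cells was kept and that in control cells was lost. The call in knockdown cells held without each of the 8 libraries in turn. The call in control cells was lost when any 1 of the 4 control libraries was left out, with adjusted p of up to 0.146.

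RPL7L1, a paralog of RPL7 (hg19 chr6:42846551-42859432), measured 80.3 and 73.5 FPKM in detached knockdown cells, against 93.2 and 96.1 FPKM in attached knockdown cells. The groups did not overlap, and the log2 fold change was -0.30 ± 0.05 (limma, adjusted p = 0.0222). In control cells it averaged 76.0 ± 0.852 FPKM detached and 89.0 ± 2.17 FPKM attached (SD, n = 2 each). At -0.23 ± 0.05 it missed the threshold there (limma, adjusted p = 0.0722). With quantile normalization the call in knockdown cells was lost. The call in knockdown cells was lost without either attached knockdown library or the second detached knockdown library, with adjusted p of up to 0.109.

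RPS26 sits at the channel through which mRNA leaves the small subunit (hg19 chr12:56435577-56438116). It measured 453 and 421 FPKM in detached knockdown cells, against 511 and 505 FPKM in attached knockdown cells. In control cells it measured 438 and 408 FPKM detached, against 502 and 522 FPKM attached. All detached libraries lay below all attached ones. The log2 fold change was -0.22 ± 0.05 in knockdown cells (limma, adjusted p = 0.0429) and -0.28 ± 0.05 in control cells (adjusted p = 0.0351). The call in knockdown cells was lost with median of ratios scaling and with quantile normalization. It was also lost with rescaling without small RNA, ribosomal RNA and mitochondrial genes. The call in control cells was lost with quantile normalization and with that rescaling. With the replicate numbers as a block both calls were kept. With the numbers of attached knockdown cells crossed in that block, both were lost. In knockdown and control cells alike, 2 of the 8 fits that leave out a library kept the call, with adjusted p of up to 0.191 in knockdown and 0.183 in control cells.

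RPL8, a protein near the peptidyl transferase centre, measured 2731 and 2709 FPKM in detached knockdown cells, against 2969 and 2882 FPKM in attached knockdown cells, which is 7.02% lower (-0.10 ± 0.02, limma, adjusted p = 0.0484). In control cells it averaged 2746 ± 21.9 FPKM detached and 2812 ± 18.5 FPKM attached (SD, n = 2 each) and did not pass (limma, adjusted p = 0.495). The call for RPL8 was lost when any single library was left out and under each alternative scaling.

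The rest of the family lay close to 0 between detached and attached cells. The median log2 fold change of the 68 genes was -0.03 in knockdown cells and -0.04 in control cells, against -0.02 and -0.01 for all tested genes. Among genes at 100 FPKM or more the medians were -0.03 and -0.04 for the 63 members, against -0.07 and -0.06 for all 1266. Over the tested members it was -0.04 for the large subunit and -0.03 for the small subunit in knockdown cells, and -0.04 for each in control cells. In knockdown cells 17 of 68 had a fold change above 0, against 46.5% of all tested genes (25 had every detached library below every attached one and 4 above, where 30% and 24% of all tested genes did), and in control cells 15 of 68, against 48.4% (37 below and 6 above, where 28.3% and 23.7% did). This direction depended on the scaling: in knockdown cells 30 were above 0 with median of ratios scaling, 45 with quantile normalization and 51 with rescaling without small RNA, ribosomal RNA and mitochondrial genes, and in control cells 19, 32 and 33. At an unadjusted p under 0.05, 8 members passed in knockdown cells and 11 in control cells, against 24.3% and 20.5% of all tested genes.

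At the ends of the range stood genes of low level or wide spread. RPL12L3 had the lowest value in knockdown cells, -0.40 ± 0.21 (limma, adjusted p = 0.287), at 1.43 and 0.949 FPKM in detached against 1.48 and 2.32 FPKM in attached knockdown cells. RPL22L1, the paralog of RPL22, measured 42.5 and 48.6 FPKM in detached knockdown cells, against 58.4 and 54.1 FPKM in attached knockdown cells (-0.30 ± 0.11, limma, adjusted p = 0.144). It did not pass, although its groups did not overlap. The highest values in control cells were RPS27L at 0.19 ± 0.08 (limma, adjusted p = 0.239), RPL38 at 0.17 ± 0.10 (0.382) and RPS23 at 0.12 ± 0.10 (0.571). RPS27L, a paralog of RPS27 and a known p53 target, measured 24.7 and 21.9 FPKM in detached control cells, against 20.7 and 19.7 FPKM in attached control cells. In knockdown cells the highest were RPS27L at 0.08 ± 0.08 and RPS27 at 0.07 ± 0.04, with adjusted p of 0.572 and 0.319 by limma.

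**Figure D3:**
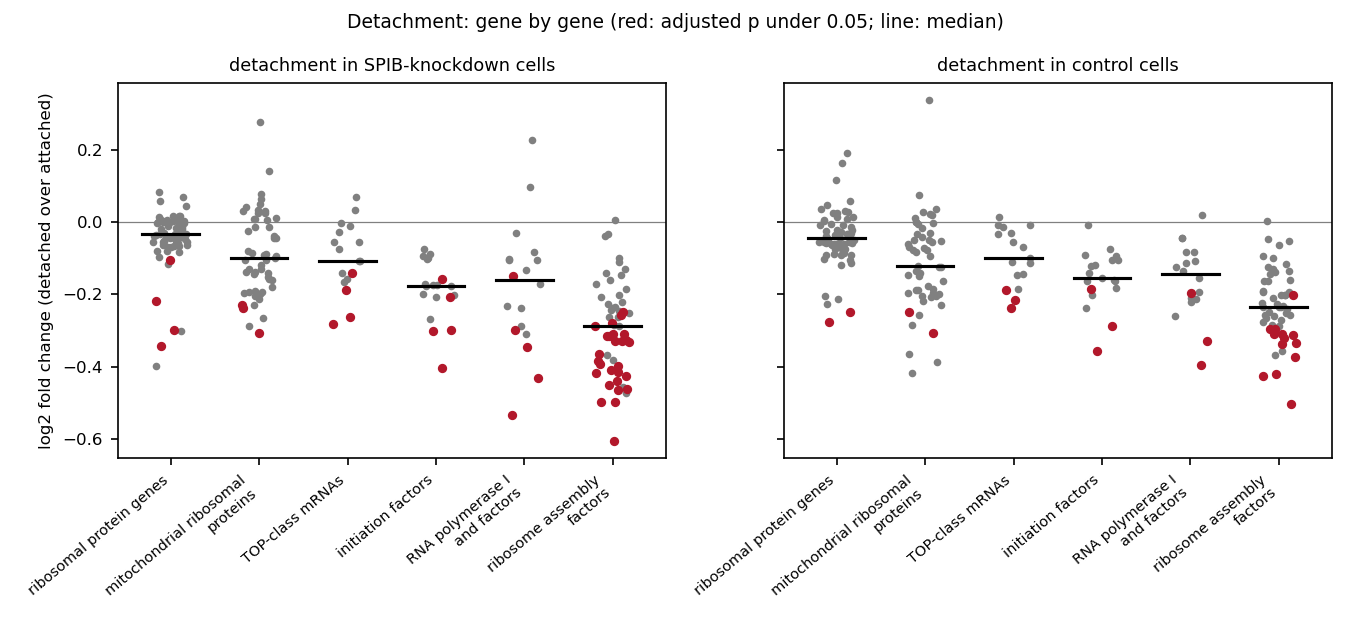
log2 fold change of detached over attached cells, gene by gene, for the 68 ribosomal protein genes and 5 lists of related genes, in SPIB-knockdown cells (left) and control cells (right). Lines are medians, and red points passed the adjusted p threshold of 0.05 in limma. The ribosomal protein genes sit near 0, with medians of -0.03 and -0.04, and the 55 ribosome assembly factors lower, with medians of -0.29 and -0.23.

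Genes that build the ribosome or act with it are given by their counts. Of 55 tested ribosome assembly factors, 27 fell in detached knockdown cells and 13 in detached control cells, none rose, and 54 of 55 were below 0 in each. Of all tested genes 5.06% fell in detached knockdown cells and 2.25% in detached control cells, and 46.5% and 48.4% were above 0. These shares stand beside this and the following lists. Among the 1266 tested genes that averaged at least 100 FPKM, 19.1% and 8.93% passed in either direction, and 73.3% and 71.7% were below 0. Most genes of the TOP class and most initiation factors lay at that level, so the second shares are the nearer background for them. NOL6, a factor of small subunit assembly, was at -0.61 ± 0.06 (limma, adjusted p = 0.00288) in knockdown cells and -0.50 ± 0.06 (0.0106) in control cells. DKC1, the pseudouridine synthase of box H/ACA particles, was at -0.50 ± 0.04 (limma, adjusted p = 0.000935) and -0.20 ± 0.04 (0.0375). NCL, the nucleolar protein nucleolin, measured 669 and 653 FPKM in detached knockdown cells, against 811 and 835 FPKM in attached knockdown cells. In control cells NCL measured 667 and 619 FPKM detached, against 795 and 798 FPKM attached. SBDS, which helps to release a factor from the new large subunit, was at -0.45 ± 0.05 (limma, adjusted p = 0.00594) in knockdown cells and -0.42 ± 0.05 (0.0125) in control cells.

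The counts for the assembly factors moved with single libraries. In knockdown cells 24 of 55 passed when any 1 of the 4 control libraries was left out. Without the first or second attached knockdown library 10 and 6 passed, and without the first or second detached knockdown library 12 and 4. In control cells none passed without either attached control library, 1 and 0 without the first and second detached control library, 6 without either attached knockdown library and 7 without either detached knockdown library. With quantile normalization 16 and 6 passed, with rescaling 20 and 7, and with median of ratios scaling 24 and 9. Whether assembly factors and ribosomal protein genes differ was not tested as a difference.

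Other lists had smaller counts. Of 18 tested genes of RNA polymerase I and its factors, 5 fell in detached knockdown cells and 3 in detached control cells, with medians of -0.16 and -0.14. CD3EAP, a subunit of that polymerase, was at -0.54 ± 0.07 (limma, adjusted p = 0.00924) and -0.40 ± 0.07 (0.0366). Of 19 initiation factors 5 and 3 fell, among them EIF5, which triggers GTP hydrolysis at the start codon, at -0.40 ± 0.04 (limma, adjusted p = 0.00353) and -0.36 ± 0.04 (0.00944). Of 53 proteins of the mitochondrial ribosome 3 and 2 fell, shares near the 5.06% and 2.25% of all tested genes, among them MRPL4 at -0.24 ± 0.05 (limma, adjusted p = 0.0293) and -0.31 ± 0.05 (0.024). Of 17 other mRNAs of the TOP class 4 and 3 fell, among them VIM at -0.28 ± 0.03 (limma, adjusted p = 0.00198) and -0.21 ± 0.03 (0.00944), and no gene of these lists rose in either. With quantile normalization 3 and 1 genes of RNA polymerase I, 2 and 1 initiation factors, 0 and 1 mitochondrial ribosomal proteins and 1 and 1 genes of the TOP class fell. With rescaling the counts were 3 and 1, 4 and 1, 1 and 2, and 2 and 1 in the same order, and 1 gene of the TOP class rose in knockdown cells. Without 1 library at a time, these counts in knockdown and control cells lay between 0 and 3 and at 0 for RNA polymerase I, between 1 and 4 and between 0 and 1 for initiation factors, between 0 and 2 and between 0 and 3 for the mitochondrial ribosome, and between 1 and 4 and between 0 and 2 for the TOP class.

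Of 17 regulators of TOP mRNA translation and mTORC1, 3 fell in detached knockdown cells and 1 in detached control cells (between 1 and 3 and between 0 and 1 without 1 library at a time), against 5.06% and 2.25% of all tested genes. The gene that fell in control cells was MYC. MYC, the transcription factor that drives many ribosome genes, measured 63.1 and 57.2 FPKM in detached knockdown cells, against 98.9 and 94.7 FPKM in attached knockdown cells. It measured 67.1 and 66.5 FPKM in detached control cells, against 90.6 and 87.0 FPKM in attached control cells. MYC was below its attached level in all 4 detached libraries, at -0.68 ± 0.06 (limma, adjusted p = 0.00156) in knockdown cells and -0.41 ± 0.06 (0.0177) in control cells. LARP1, which binds the TOP tract, was at -0.21 ± 0.05 (limma, adjusted p = 0.0384) in knockdown cells and -0.22 ± 0.05 (0.054) in control cells, where it missed the threshold.

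The second question was what SPIB knockdown did in each state. In detached knockdown cells, against detached control cells, 1 of 68 ribosomal protein genes passed the limma test, RPS12, which rose (1.47%, against 0.737% of all tested genes, of which 0.0744% rose and 0.662% fell). In attached knockdown cells, against attached control cells, RPL27A rose and RPL31 fell (2 of 68, or 2.94%, against 1.85% of all tested genes, of which 0.64% rose and 1.21% fell). No other member passed. Among tested genes that averaged at least 100 FPKM, 1 of 63 members passed in detached cells (1.59%, against 3.08% of all 1266 such genes). In attached cells 2 of 63 did (3.17%, against 4.9%). The members' shares rest on 1 and 2 genes. They are therefore not read as differing from those of all tested genes or of genes at that level, which was not tested. In size, the fold changes of the tested members lay between -0.18 and 0.18 in detached cells and between -0.20 and 0.37 in attached cells.

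**Figure D4:**
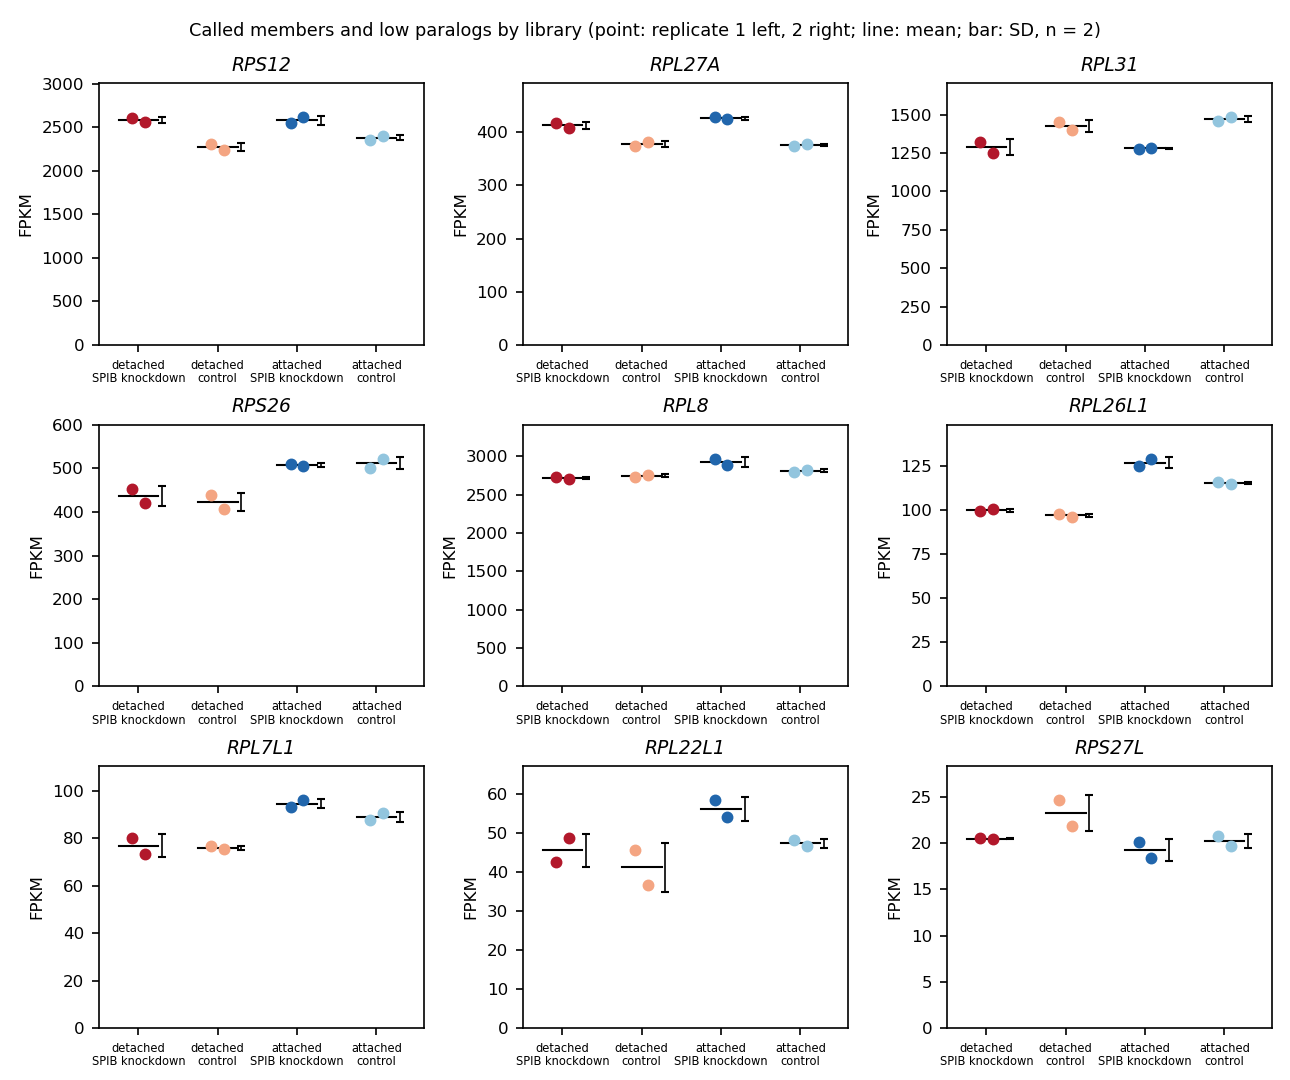
FPKM in each library of the 7 ribosomal protein genes that passed the test in a comparison and of the low paralogs RPL22L1 and RPS27L, on axes that start at 0. Points are libraries, lines are means and bars are SD (n = 2). RPS12 and RPL27A were higher and RPL31 lower in both knockdown groups, and RPS26, RPL26L1 and RPL7L1 were lower in both detached groups.

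RPS12, a protein of the small subunit's head (hg19 chr6:133135137-133143875), measured 2604 and 2555 FPKM in detached knockdown cells, against 2303 and 2239 FPKM in detached control cells. This was 13.6% higher, at a log2 fold change of 0.18 ± 0.03 (SE; limma, adjusted p = 0.0375). In attached cells it measured 2542 and 2614 FPKM with knockdown, against 2356 and 2398 FPKM in control, 8.45% higher, and missed the threshold (0.12 ± 0.03; limma, adjusted p = 0.0942). The 4 knockdown libraries lay above the 4 control libraries. With the replicate numbers as a block in the fit, the call in detached cells was lost. The call in detached cells was lost when any single library was left out, with adjusted p between 0.0592 and 0.233, and with quantile normalization. Over the 8 libraries the genes whose levels followed RPS12 most closely were ASNS (Pearson r 0.98), CMAS (0.98), and the ribosomal protein genes RPL30 (0.98), RPL13 (0.98) and RPS3A (0.97), as a description over 8 points that share 4 groups.

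RPL27A, a protein of the large subunit (hg19 chr11:8703388-8736306), measured 428 and 425 FPKM in attached knockdown cells, against 374 and 377 FPKM in attached control cells. That is 13.5% higher (0.18 ± 0.03; limma, adjusted p = 0.037). In detached cells it averaged 413 ± 6.25 FPKM with knockdown and 378 ± 5.99 FPKM in control (SD, n = 2 each). This was 9.24% higher and did not pass (limma, adjusted p = 0.152). With rescaling without small RNA, ribosomal RNA and mitochondrial genes, the call in attached cells was lost. It was also lost with the replicate numbers as a block. The call in attached cells was lost when any single library was left out, with adjusted p between 0.0618 and 0.182.

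RPL31, a large subunit protein near the end of the peptide exit tunnel (hg19 chr2:101618177-101640494), lay on the other side of 0 from most members. It measured 1280 and 1282 FPKM in attached knockdown cells, against 1457 and 1484 FPKM in attached control cells. This was -0.20 ± 0.04, or a level 12.9% lower (limma, adjusted p = 0.042). In detached cells it measured 1324 and 1251 FPKM with knockdown, against 1454 and 1402 FPKM in control. This did not pass (-0.15 ± 0.04, limma, adjusted p = 0.137). With the replicate numbers as a block, the call in attached cells was lost. The call in attached cells was kept without either detached knockdown library and lost without each of the other 6, with adjusted p of up to 0.208.

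Most members lay slightly above 0 with knockdown in each state without passing the test. In detached cells 62 of 68 had a fold change above 0, against 49.9% of all tested genes, with a median of 0.07 against 0.00. In attached cells 60 of 68 were above 0, against 51.6% of all tested genes, with a median of 0.07 against 0.01. Among the 1266 tested genes that averaged at least 100 FPKM, the medians were -0.01 in detached and 0.01 in attached cells. Every knockdown library lay above every control library for 43 members in detached cells and 44 in attached cells, where 21.3% and 24.4% of all tested genes did, and below for 2 and 5, where 22.6% and 22.4% did. An unadjusted p under 0.05 was reached by 23 of 68 in each state, against 11.9% of all tested genes in detached cells and 17.1% in attached cells.

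With quantile normalization the counts above 0 were 52 in detached and 45 in attached cells, with medians of 0.05 and 0.02. With rescaling they were 62 and 56, and with median of ratios scaling 63 and 59. Leaving out 1 library at a time gave between 56 and 63 in detached cells and between 50 and 60 in attached cells. The members share each library's scaling, so they are not independent, and no test was made over them together. The comparisons in detached and attached cells share no library, while each shares 1 group with each detachment comparison.

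**Figure D5:**
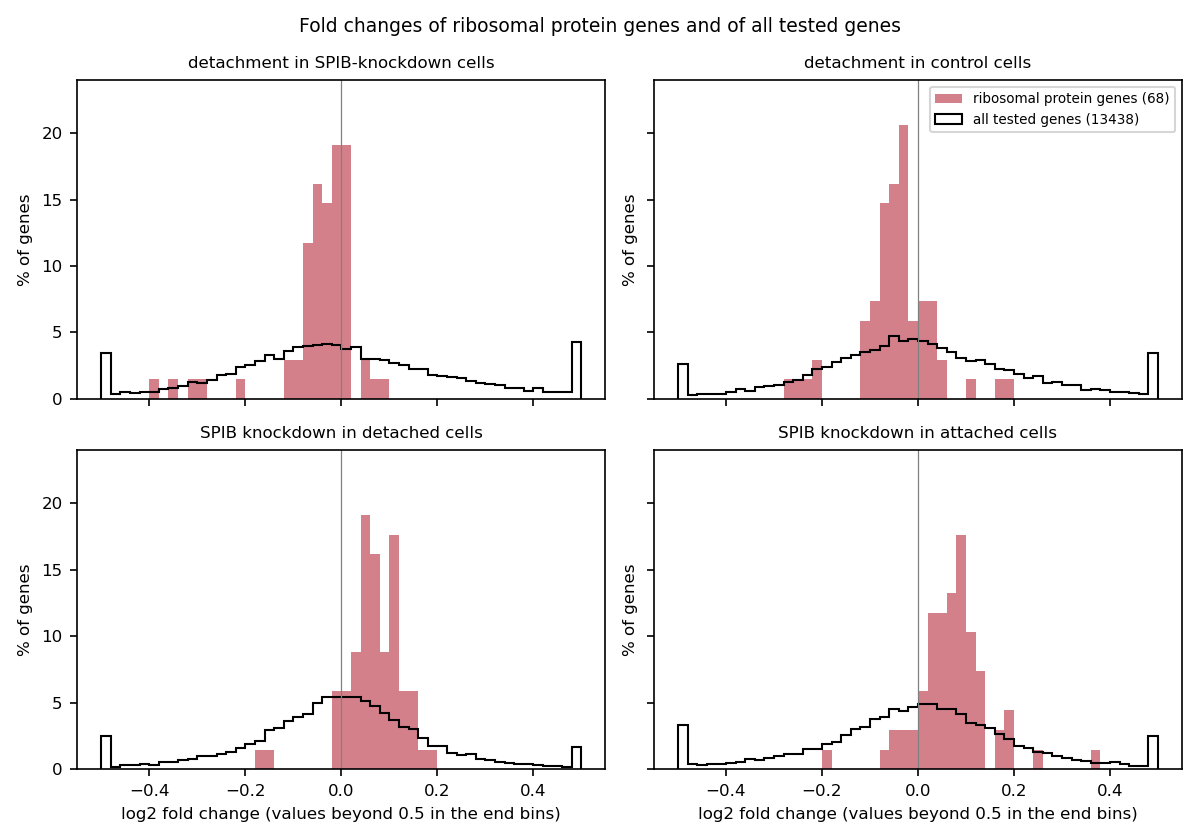
Distribution of log2 fold changes of the 68 tested ribosomal protein genes (filled) and of all 13438 tested genes and loci (outline), in % of genes, for detachment (top) and SPIB knockdown (bottom). The ribosomal protein genes are narrow in all panels, with medians of -0.03 and -0.04 for detachment and 0.07 in each panel for SPIB knockdown.

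By role, none of the following members passed the test for knockdown. The large subunit had a median of 0.07 in detached and 0.08 in attached cells, and the small subunit 0.08 and 0.05. RPL5, which with RPL11 and 5S RNA can bind the p53 regulator MDM2, averaged 948 ± 31.4 FPKM in detached knockdown cells and 875 ± 23.0 FPKM in detached control cells, and 949 ± 13.8 FPKM in attached knockdown cells and 866 ± 11.1 FPKM in attached control cells (SD, n = 2 each). RPL11 averaged 1221 ± 35.4 FPKM in detached knockdown cells and 1105 ± 25.5 FPKM in detached control cells. RPL5 was at 0.12 and 0.13 on the log2 scale in detached and attached cells, and RPL11 at 0.14 and 0.10. The stalk proteins RPLP0, RPLP1 and RPLP2 were at 0.07, 0.06 and 0.09 in detached cells and 0.06, 0.09 and 0.07 in attached cells.

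RPS6, the substrate of the S6 kinases, was at 0.12 in detached and 0.09 in attached cells, and RPS3, at the mRNA entry channel, at 0.09 and 0.05. RPS27A, which is made as a fusion with ubiquitin, was at 0.10 and 0.06. RPS4X, encoded on the X chromosome, was at 0.10 and 0.16, with adjusted p of 0.284 and 0.0606 by limma. RPSA, the laminin receptor precursor, was among the flattest members, at 0.01 and 0.02, with 1241 and 1235 FPKM in detached knockdown cells against 1225 and 1237 in detached control cells. RPL39 and its testis paralog RPL39L were at 0.02 in both states. RPL6 was the closest to passing in detached cells after RPS12 among the genes named, at 0.16 ± 0.03 (limma, adjusted p = 0.0726), with 1209 and 1231 FPKM in knockdown cells against 1096 and 1088 FPKM in control cells.

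A few members lay below 0 with knockdown. RPS27L measured 20.5 and 20.4 FPKM in detached knockdown cells, against 24.7 and 21.9 FPKM in detached control cells (-0.18 ± 0.08; limma, adjusted p = 0.459). RPL7A was at -0.06 ± 0.04 in attached cells (limma, adjusted p = 0.529). At the upper end in attached cells, RPL12L3 was at 0.37 ± 0.21, RPL22L1 at 0.24 ± 0.11 and RPS23 at 0.20 ± 0.10, with adjusted p of 0.426, 0.319 and 0.38 by limma. These 3 have the widest replicate spread of the family.

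Members with and without a TOP tract near the start had medians close together. With knockdown, the median of the 42 tested members that held it within 5 bases of the start was 0.07 in detached and 0.08 in attached cells, against 0.04 and 0.06 for the 11 without it. On detachment the medians were -0.03 and -0.04 with the tract in knockdown and control cells, and -0.02 and -0.06 without it. No test was made of these differences.

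Of the related lists, TPT1, a TOP mRNA that encodes the translationally controlled tumour protein, was the only gene that passed with knockdown. It measured 955 and 942 FPKM in detached knockdown cells, against 810 and 815 FPKM in detached control cells. In attached cells it measured 927 and 925 FPKM with knockdown, against 806 and 834 FPKM in control. TPT1 rose by 0.22 ± 0.03 (limma, adjusted p = 0.0201) in detached and 0.17 ± 0.03 (0.0328) in attached cells. With quantile normalization 0 genes of the TOP class passed in either state, so neither call of TPT1 held. With median of ratios scaling and with rescaling, 1 gene of the class rose in each state. In detached cells the TOP class held 1 called gene when any 1 attached library was left out and 0 when any 1 detached library was, and in attached cells it held 0 when any single library was left out. The 17 other mRNAs of the TOP class had medians of 0.06 and 0.07, with 14 and 15 above 0. The 53 mitochondrial ribosomal proteins had medians of 0.00 and -0.01, the 55 assembly factors 0.02 and 0.10, the 19 initiation factors 0.05 and 0.09, the 18 genes of RNA polymerase I -0.10 and -0.07, and the 17 regulators -0.04 and 0.05.

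The third question was whether the effect of knockdown differed between detached and attached cells, which is the same difference as that of detachment between knockdown and control cells. No ribosomal protein gene passed in limma, nor did any of the 13438 tested genes (0%). At an unadjusted p under 0.05, 1 member passed, RPL6, against 898 of all tested genes (6.68%). RPL6 was at 0.10 ± 0.04 (limma, adjusted p = 0.745). The median of the 68 was -0.00, with 33 above 0, against 48.3% of all tested genes. At the ends stood RPL38 at -0.20 ± 0.14, RPL12L3 at -0.19 ± 0.29 and RPS23 at -0.15 ± 0.14, and, above 0, RPL6 and RPS21 at 0.10 ± 0.09. The calls for RPS12 in detached cells and for RPL27A and RPL31 in attached cells are therefore not shown to differ between the states, with interaction values of 0.07 ± 0.04, -0.05 ± 0.04 and 0.05 ± 0.05 (limma, adjusted p = 0.811, 0.869 and 0.899).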

How the data were processed

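RNA was measured in 8 libraries of H1703 cells, in 4 groups of 2. Trizol was used for the total RNA and a first strand kit for the cDNA, per the labels' protocols. The authors deposited FPKM per locus, 1 table per library with 28590 loci. The submitters' processing notes name HISAT, Cuffnorm and hg19, without versions. Loci of 1 symbol were summed. limma 3.58.1 in R 4.3.3 was fitted to log2(FPKM + 1) of the 13438 genes and loci at 1 FPKM or more in at least 2 libraries. The fit had 1 mean per group, an intensity trend, with 4 residual degrees of freedom and 3.42 prior ones. All tests were two-sided, with Benjamini-Hochberg adjustment over all tested genes and a threshold of 0.05. A pseudocount of 1 understates the change of low genes. Fold changes lie on that scale, and percent changes are derived from them. FPKM holds no read total, so no count model was used. The fit was tested on simulated data.

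Named were members past the threshold, the 3 highest and 3 lowest per comparison, the most abundant, those of known role, and up to 4 genes with the smallest p of each related list. Some genes that meet this rule are not reported here. Other scalings, filters, pseudocounts, a replicate block and leaving out each library were tried. The members and lists were chosen with earlier results of these data known. Replicate numbers were not taken as pairs. Differences between replicates in attached knockdown cells correlated negatively with those of the other groups over all tested genes. The other pairs of groups correlated positively. Whether the numbers mark a shared origin was not tested.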

Additional observations from a re-analysis of the deposited data

How the results depend on the processing

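The counts of called ribosomal protein genes are small and moved with most choices. They were 4 for detachment in knockdown cells, 2 for detachment in control cells, 1 for knockdown in detached cells, 2 for knockdown in attached cells and 0 for the difference between them. In the same order, without a filter on low values they were 1, 1, 0 and 0, and without an intensity trend 1, 0, 0 and 0. Quantile normalization gave 1, 0 and 0 for the first 3, median of ratios scaling gave 2 for the first, and rescaling without small RNA, ribosomal RNA and mitochondrial genes gave 1 for detachment in control cells and 1 for knockdown in attached cells. Leaving out 1 library at a time gave 1 to 3, 0 to 2, 0 and 0 to 1. Fewer samples enter those fits, and for the other settings the cause was not tested.

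The median fold change for detachment in knockdown cells, -0.03, was -0.00927 with median of ratios scaling, 0.0289 with quantile normalization and 0.0255 with rescaling, and between -0.0575 and -0.00781 without 1 library. For detachment in control cells, -0.04, it was -0.0127 with quantile normalization and -0.00162 with rescaling. For knockdown in detached cells, 0.07, it was 0.0470 with quantile normalization. For knockdown in attached cells, 0.07, it was 0.0207 with quantile normalization, 0.0460 with rescaling and between 0.0518 and 0.0881 without 1 library. The median difference was 0.0260 with quantile normalization and between -0.0266 and 0.0318 without 1 library. Leaving out 1 library put the difference of RPL12L3 between -0.397 and 0.0221, above 0 without the second attached knockdown library, and that of RPS21 between -0.00396 and 0.211, below 0 without the second detached control library.

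With merged loci added, an alternative chosen after seeing the data, the summed FPKM averaged 121910 in detached knockdown cells, 116090 in detached control cells, 124150 in attached knockdown cells and 118620 in attached control cells. With rescaling the sums were 95661 in detached knockdown, 91306 in detached control and 93486 in attached knockdown cells. No locus merged a ribosomal protein gene with small RNA genes alone, so adding those gave no value.

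As a replicate block, the replicate numbers gave 3, 2, 0, 1 and 0 calls. RPL8 (limma, adjusted p = 0.0576), RPS12 (0.0643), RPL31 (0.0521) and RPL27A (0.0538) lost their calls, and RPS23 was called for knockdown in attached cells (0.20 ± 0.03, adjusted p = 0.0239). The numbers share no stated origin. Differences between replicates in attached knockdown cells correlated negatively with those of the other groups over all tested genes (r between -0.19 and -0.14), while the other pairs of groups were between 0.17 and 0.27. Over genes at 10 FPKM or more these were between -0.48 and -0.46 and between 0.34 and 0.60. Over the 68 members attached knockdown correlated at -0.04 with attached control, 0.47 with detached control and -0.06 with detached knockdown, and the other pairs lay between 0.13 and 0.45. A block with the numbers of attached knockdown cells crossed, added after seeing the data, gave 2, 1, 0, 0 and 0 calls. It kept RPL26L1 for detachment in knockdown and control cells and RPL7L1 in knockdown cells, and RPS26 lost both of its calls. This crossed split is also the split between libraries with the mitochondrial loci listed at 0 and the others. Whether it marks a shared batch was not tested. Depth is unknown, which limits genes of low FPKM most.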

Other observations

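The 17 ribosomal protein symbols that stood only in loci merged with other genes were read as whole loci, whose values cannot be split. In detached knockdown cells, against detached control cells, 15 of the 17 were above 0 with a median log2 fold change of 0.07. In attached knockdown cells, against attached control cells, 14 of 17 were above 0 with a median of 0.08, and none passed the limma test in either (smallest adjusted p 0.0937 and 0.0977). On detachment 5 of 17 were above 0 in knockdown cells and 2 in control cells, with medians of -0.03 and -0.05. The locus of RPL36 and HSD11B1L was the only 1 of them to pass, at -0.14 ± 0.03 (limma, adjusted p = 0.0328) in knockdown cells and -0.16 ± 0.03 (0.0372) in control cells. The levels of the 68 tested ribosomal protein genes correlated with one another over the 8 libraries with a median pairwise r of 0.54. This is a description of points that share each library's scaling.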
